A study of Mus musculus with 3 samples.

Results

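The genes described here encode proteins of the red cell membrane and carriers of blood group antigens. They are Slc4a1, Ank1, Rhag, Rhd, Kel, Ermap and Aqp1, and they were chosen by name, through all non-control probes that the array annotation gives to them. This gave 7 genes of the 34797 gene names on the array, read by 9 probes. Ermap had 3 probes and each of the other 6 genes had 1. The RNA came from spleens of male C57BL/6J mice made diabetic with streptozotocin, which destroys the insulin-producing cells, and then given syngeneic islets, that is, islets of the same inbred strain. Every recipient received 25 intra-splenic islets and 100 islets under the kidney capsule, although the sample labels name the capsular graft for the day 139 spleen alone. The day 0 spleen was taken just after transplantation and the day 2 spleen 2 days later. The day 139 spleen was taken 139 days after transplantation, after nephrectomy on day 100 had taken out the kidney with its graft. The methods give an age of 8 to 16 weeks for the mice, which 139 days alone exceed, so the day 139 spleen came from older mice. No spleen without islets and no spleen of an untreated mouse was analysed here.

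The red cell membrane is a lipid bilayer held to a meshwork of spectrin, actin and their partners on its inner face. The anion exchanger Slc4a1, which swaps chloride for bicarbonate, is anchored to that meshwork by ankyrin, and the Rh proteins sit in the same assembly. Blood group antigens are carried on such membrane proteins, and transcripts for them are made by nucleated erythroid precursors, which in mice mature in the red pulp of the spleen as well as in the bone marrow.

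There was 1 array for each day, without replicates, and differences between days are given as descriptions with no test. How many mice stand behind an array is not stated in the sources used here, and day, age, blood glucose, graft and nephrectomy cannot be told apart. Values are normalized signals, on a linear scale, of one-color arrays with Cy3-labeled RNA. The error given after each signal is the scanner software's own estimate for the spot. It came to about 0.20 on the log2 ratio of each member probe, and covers neither labeling nor differences between mice. Of 55679 probes, 32108 were well above background on at least 1 array and 26887 on all 3. The share well above background was 54.4% on day 0, 53.8% on day 2 and 50.4% on day 139. All 9 member probes were well above background on every array, and 0 were saturated. The spleen markers Tlx1, with signals of 520, 464 and 390 on days 0, 2 and 139, and Nkx2-5, with 488, 946 and 415, were well above background on each array. In a whole spleen, fewer cells of a type and less RNA per cell cannot be told apart.

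The promoters of the members were searched for a motif that GATA factors, among them the erythroid factor Gata1, are known to bind. All members were lower on the day 139 array than on both others, and whether the motif has a part in this was not tested. RefSeq sequence on GRCm38.p6 was at hand for 5 of the 7 members (Rhd, Rhag, Kel, Ermap and Aqp1). The motif was read on both strands of the 250 bases before the annotated start as AGATAA or TGATAA, of which TGATAA was added after the sequences had been seen. It was present in 4 of the 5 promoters, against 16.6% of 32851 promoters of the same length. AGATAA alone was present in 2 of 5, against 9.99%, and TGATAA alone in 3 of 5, against 7.94%. Only the AGATAA count was set beforehand. Counts that include TGATAA rest on a form added with these sequences in view, so setting them against all promoters is no test. In the runs below, written in the direction of transcription, capitals mark the motif, and TTATCA is TGATAA on the other strand. Rhd lies at chr4:134864286-134864535 (plus strand), Rhag at chr17:40810899-40811148 (plus strand), Kel at chr6:41704326-41704575 (minus strand) and Ermap at chr4:119189996-119190245 (minus strand).
Rhd: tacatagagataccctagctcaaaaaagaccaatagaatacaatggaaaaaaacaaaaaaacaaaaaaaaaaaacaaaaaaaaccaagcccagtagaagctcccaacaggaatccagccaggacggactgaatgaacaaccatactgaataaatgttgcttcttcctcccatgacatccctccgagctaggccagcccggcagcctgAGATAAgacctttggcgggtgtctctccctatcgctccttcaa
Rhag: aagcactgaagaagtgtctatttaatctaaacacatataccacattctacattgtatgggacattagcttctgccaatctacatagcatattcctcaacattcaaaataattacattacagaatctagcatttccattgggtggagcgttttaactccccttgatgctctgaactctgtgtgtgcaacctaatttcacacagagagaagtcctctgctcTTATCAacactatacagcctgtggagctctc
Kel: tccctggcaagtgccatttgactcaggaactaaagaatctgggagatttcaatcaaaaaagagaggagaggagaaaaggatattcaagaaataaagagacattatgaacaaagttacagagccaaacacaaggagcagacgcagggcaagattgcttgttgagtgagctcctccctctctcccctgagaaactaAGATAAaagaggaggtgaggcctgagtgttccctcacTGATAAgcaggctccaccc
Ermap: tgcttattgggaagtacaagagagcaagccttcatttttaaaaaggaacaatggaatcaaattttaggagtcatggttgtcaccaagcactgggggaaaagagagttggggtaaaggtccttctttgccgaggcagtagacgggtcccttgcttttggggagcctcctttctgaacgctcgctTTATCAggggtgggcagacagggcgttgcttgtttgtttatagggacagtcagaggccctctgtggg

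The motif began 43 bases before the start in Rhd, 31 in Rhag and 67 in Ermap. Kel held it at 56 and again at 19 bases. Aqp1 (chr6:55336049-55336298, plus strand) held neither form. Its promoter was also the richest of the 5 in G and C, with 62% against 39.2% to 49.2% in the others. It alone of the 5 held CCNCNCCCN, the CACCC type of box that Klf1 is known to bind, at 3 places, and CAGNTG, the E-box, at 1 place. Those motifs stood in 45.8% and 44.8% of all promoters. A match is a description of these letters and not of binding.

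Slc4a1, the anion exchanger, which also carries the Diego antigens, was read by a probe at chr11:102210256-102210315 on mm9 (minus strand, NM_011403). Its signal was 38164 ± 3816 on day 0, 46548 ± 4655 on day 2 and 26829 ± 2683 on day 139. The order was day 2, day 0, day 139, and each neighboring pair differed by more than the scanner error. The ratio of day 139 was 0.703 over day 0 and 0.576 over day 2, which are log2 ratios of -0.51 and -0.79, while day 2 stood at 1.22 over day 0 (log2 ratio 0.29).

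Ank1 encodes the ankyrin that ties the anion exchanger to spectrin, and mutations of it are a known cause of hereditary spherocytosis. Its probe (chr8:24259068-24259127, plus strand, NM_001110783) gave 1267 ± 127 on day 0, 1261 ± 126 on day 2 and 566 ± 56.7 on day 139. Days 0 and 2 did not differ beyond the error (log2 ratio -0.01), and day 139 lay below both. The ratios of 0.447 over day 0 and 0.449 over day 2 are log2 ratios of -1.16 each, the lowest of the 7 genes in either comparison.

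Rhag encodes the Rh-associated glycoprotein, without which the Rh proteins do not reach the membrane. Its signal at chr17:40976929-40976988 (plus strand, NM_011269) was 1219 ± 122 on day 0, 763 ± 76.4 on day 2 and 553 ± 55.4 on day 139. Of the 7 genes it was the only one for which both steps, day 0 to 2 and day 2 to 139, were downward by more than the error. The ratio was 0.626 for day 2 over day 0 (log2 ratio -0.68), 0.725 for day 139 over day 2 (-0.46) and 0.454 for day 139 over day 0 (-1.14).

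Rhd encodes the mouse Rh blood group protein, the partner of Rhag in the membrane. Its signal at chr4:134452018-134452077 (plus strand, NM_011270) was 15288 ± 1529 on day 0, 15515 ± 1552 on day 2 and 10153 ± 1015 on day 139. Days 0 and 2 did not differ beyond the error, with a log2 ratio of 0.02, whereas Rhag had its larger step between those days. Day 139 had a ratio of 0.664 over day 0 and 0.654 over day 2 (log2 ratios of -0.59 and -0.61), on either side of the limit of 0.66 used below.

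Kel encodes the Kell glycoprotein, a zinc endopeptidase joined to the transporter-like protein Xk. Its signal at chr6:41636474-41636533 (minus strand, NM_032540) was 3715 ± 371 on day 0, 3408 ± 341 on day 2 and 2305 ± 231 on day 139. Days 0 and 2 did not differ beyond the error (log2 ratio -0.12). Day 139 stood at 0.621 of day 0 (log2 ratio -0.69) and at 0.677 of day 2 (-0.56). Xk, which belongs to the list of other blood group genes below, had signals of 203, 155 and 148.

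Ermap encodes an erythroid membrane protein of the immunoglobulin superfamily that carries the Scianna antigens. Its brightest probe (chr4:118848540-118848599, minus strand, NM_013848) gave 4569 ± 457 on day 0, 5731 ± 573 on day 2 and 2875 ± 288 on day 139. As with Slc4a1, the order was day 2, day 0, day 139, with each neighboring pair apart by more than the error. Day 139 stood at 0.629 of day 0, a log2 ratio of -0.67, and at 0.502 of day 2. The 3 probes of Ermap spread over 11274 bases of the gene and gave the same order of days. At chr4:118849093-118849152, however, days 0 and 2 did not differ beyond the error (log2 ratio 0.12). The probe at chr4:118859754-118859813 read 1471 ± 147, 1750 ± 175 and 794 ± 79.5, and the probe at chr4:118849093-118849152 read 937 ± 93.7, 1015 ± 102 and 755 ± 75.7. The probes differed in size, since day 139 over day 0 was -0.89 by the first of these and -0.31 by the other on the log2 scale.

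Aqp1 encodes the water channel of red cells, which carries the Colton antigens and is also known from the endothelium. Its signal at chr6:55298480-55298539 (plus strand, NM_007472) was 27187 ± 2719 on day 0, 24932 ± 2493 on day 2 and 16990 ± 1699 on day 139. Days 0 and 2 did not differ beyond the error, and day 139 lay below both, at 0.625 of day 0 (log2 ratio -0.68) and 0.681 of day 2 (-0.55). The list of 18 endothelial markers had a median log2 ratio of -0.45 over day 0. Below 0 were 15 of 18, against 52.2% of all probes. At or below a ratio of 0.66 were 4, against 14.7% of all probes. Its summed signal was 63957, 61350 and 49495 on days 0, 2 and 139. Under spike-in scaling its median was -0.06, beside 0.34 for all probes, with 9 of 18 below 0. By that scaling 1 was at or below 0.66, against 7.65% of all probes, and 1 at or above 1.5, against 29.6%. The part of the endothelial list in the value of Aqp1 was not tested.

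**Figure D1:**
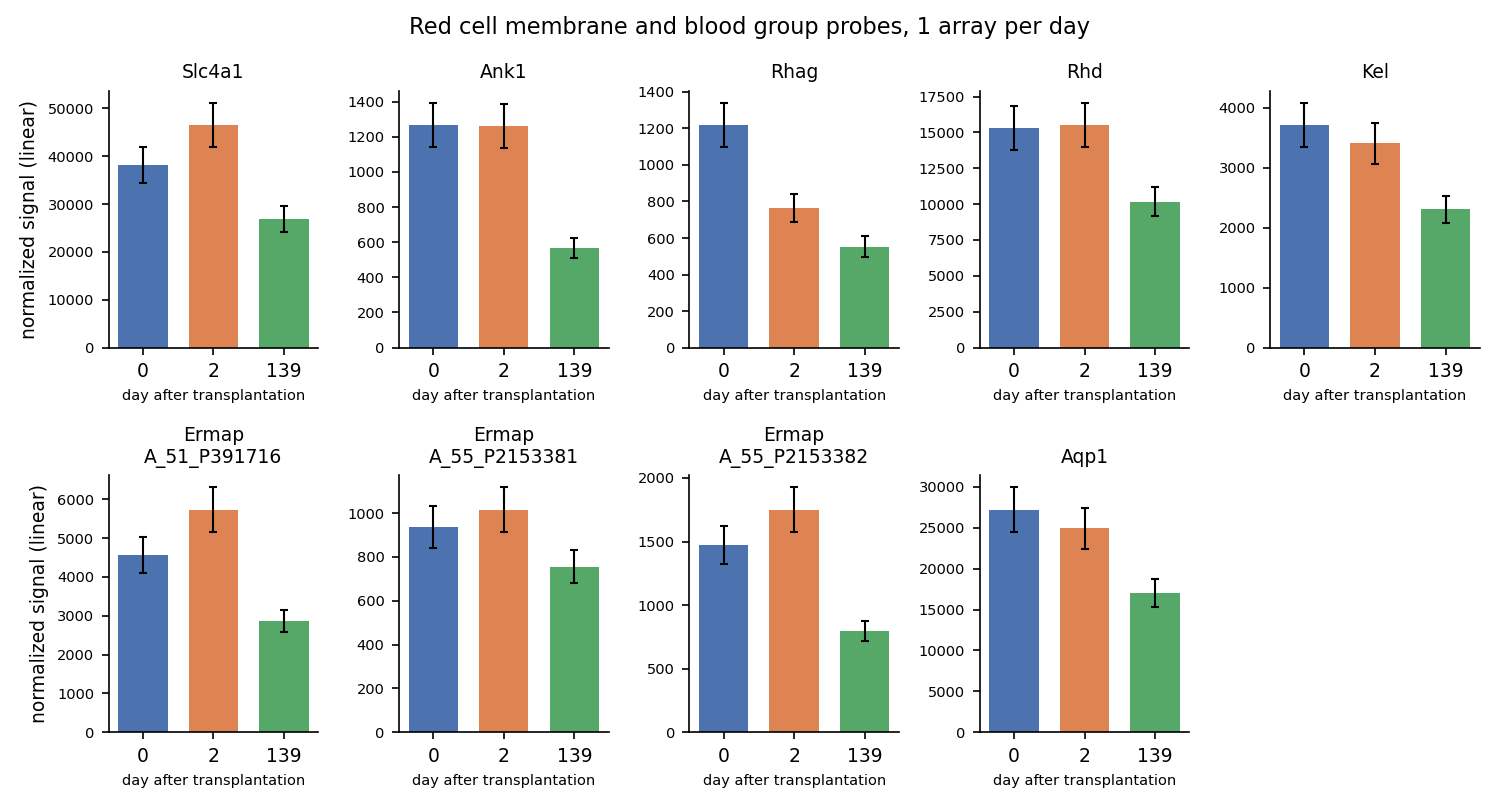
Normalized signal, on a linear scale from 0, of the 9 member probes on day 0, day 2 and day 139, with 1 bar per array and error bars of the scanner software for that spot. In all 9 panels the day 139 bar is the lowest, and Rhag alone has its day 2 bar below the day 0 bar by more than the error.

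Over the 7 genes, day 139 was lower than day 0 in every case by more than the scanner error. The median log2 ratio was -0.68, a ratio of 0.625, with single genes from -1.16 to -0.51. All 32108 probes had a median of -0.02 with an SD of 0.84, and 12.6% of them lay at or below the members' median. Of all probes, 52.2% were below 0. The study's methods ask for a ratio of at most 0.66 together with a Z-score of at most -2. By the ratio alone, 5 of the 7 genes (Ank1, Rhag, Kel, Ermap and Aqp1) were lower, against 14.7% of all probes. At a ratio of at least 1.5, 0 of the 7 were higher, against 12.8% of all probes. A Z-score was formed by dividing the log2 ratio by the SD of the 1000 probes closest in mean signal. Ank1, with a Z-score of -2.04, and Rhag, with -2.15, also had a Z-score of at most -2, as had 2.21% of all probes together with the ratio limit. The other 5 genes had Z-scores of -1.24 to -1.02. The Z-score sets a probe against other probes and not against replicate mice.

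Day 139 was also lower than day 2 in all 7 genes, by more than the error. This comparison shares the day 139 array with the one above and is no independent repeat of it. The median log2 ratio was -0.61 (ratio 0.654), from -1.16 for Ank1 to -0.46 for Rhag, beside a median of -0.04 over all probes. Of all probes, 53.1% were below 0. At or below the ratio of 0.66 were 4 genes, Slc4a1, Ank1, Rhd and Ermap, against 14.4% of all probes, and 0 were at or above 1.5, against 12.4%. No gene passed the Z-score limit as well, which 1.77% of all probes did, and Ank1 came nearest with -1.98.

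Between days 0 and 2 the 7 genes went both ways. The median log2 ratio of day 2 over day 0 was -0.01, with 4 genes below and 3 above 0. All probes had a median of 0.01, with 48.4% of them below 0. Only 3 genes differed by more than the scanner error, namely Slc4a1 (0.29) and Ermap (0.33), which were higher on day 2, and Rhag (-0.68), which was lower. Rhag was the 1 gene at or below 0.66, against 10.4% of all probes. At or above 1.5 there were 0, against 10.1%, and 0 passed the Z-score and ratio limits as lower, against 2.55%.

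**Figure D2:**
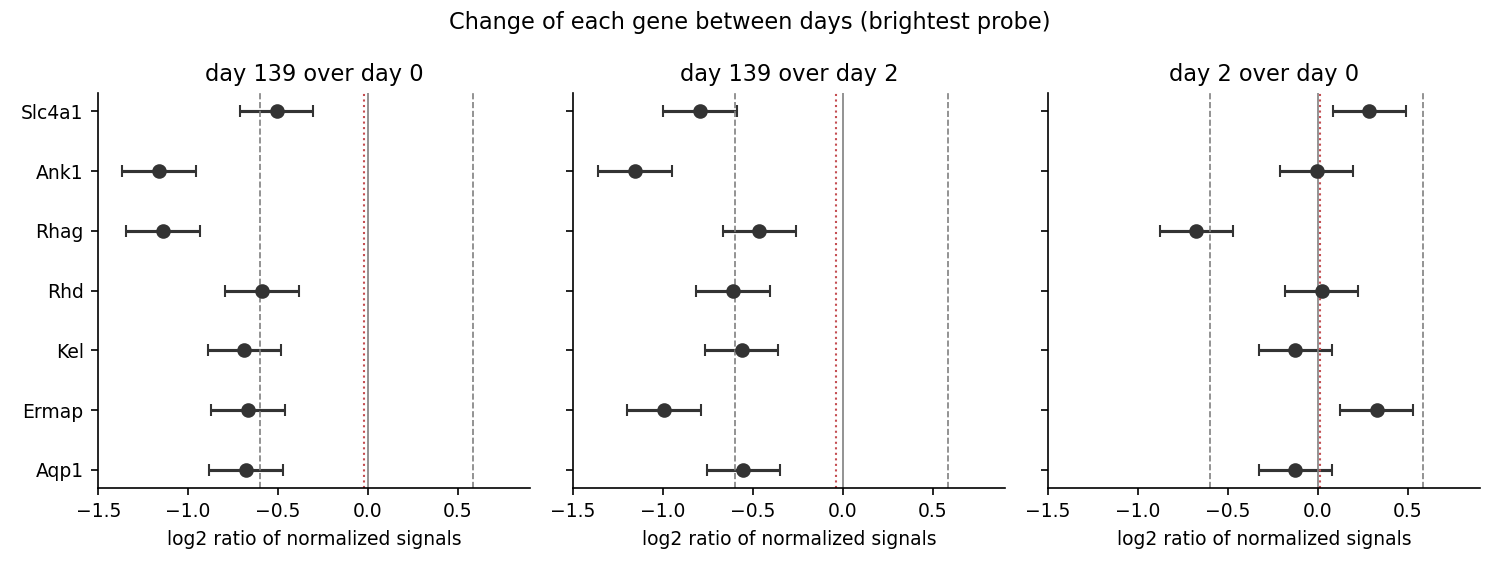
Log2 ratio of each of the 7 genes in 3 comparisons (day 139 over day 0, day 139 over day 2, day 2 over day 0), with the scanner error of 0.20 as a bar, dashed lines at the ratios 0.66 and 1.5, and a red dotted line at the median of all 32108 probes. All 7 points lie below 0 in the comparisons of day 139, from -1.16 to -0.46, and on both sides of 0 in day 2 over day 0.

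How much lower the genes were on day 139 depended on the scaling. Quantile normalization forces 1 common distribution on all arrays and cannot show a change in total RNA. The 8 spike-in controls, RNAs added in fixed amount, had on day 139 a signal of 65.8% of that on day 0 before normalization, and on day 2 a signal of 103%. Scaled to them, the median log2 ratio of all probes rose to 0.34 for day 139 over day 0 and to 0.38 over day 2. The split of all probes at the ratio limits became 7.65% lower and 29.6% higher over day 0, in place of 14.7% and 12.8%, and 6.11% lower and 32.9% higher over day 2, in place of 14.4% and 12.4%. All 7 genes were still below 0 in both comparisons, with medians of -0.29 and -0.29. Over day 0, 5 of the 7 still differed by more than the scanner error, and the other two were Slc4a1 (-0.09) and Rhd (-0.20). Over day 2, 4 did so, and Rhag had a log2 ratio of -0.03. At or below 0.66 were 2 genes in each, Ank1 (-0.76) and Rhag (-0.73) over day 0, and Ank1 (-0.74) and Ermap (-0.62) over day 2. Relative to the median of all probes under this scaling, the members' medians were -0.63 over day 0 and -0.67 over day 2. The scaling shifts all probes of an array alike and cancels in these differences. They were the same under 75th percentile scaling and hold nothing of the spike-ins.

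**Figure D3:**
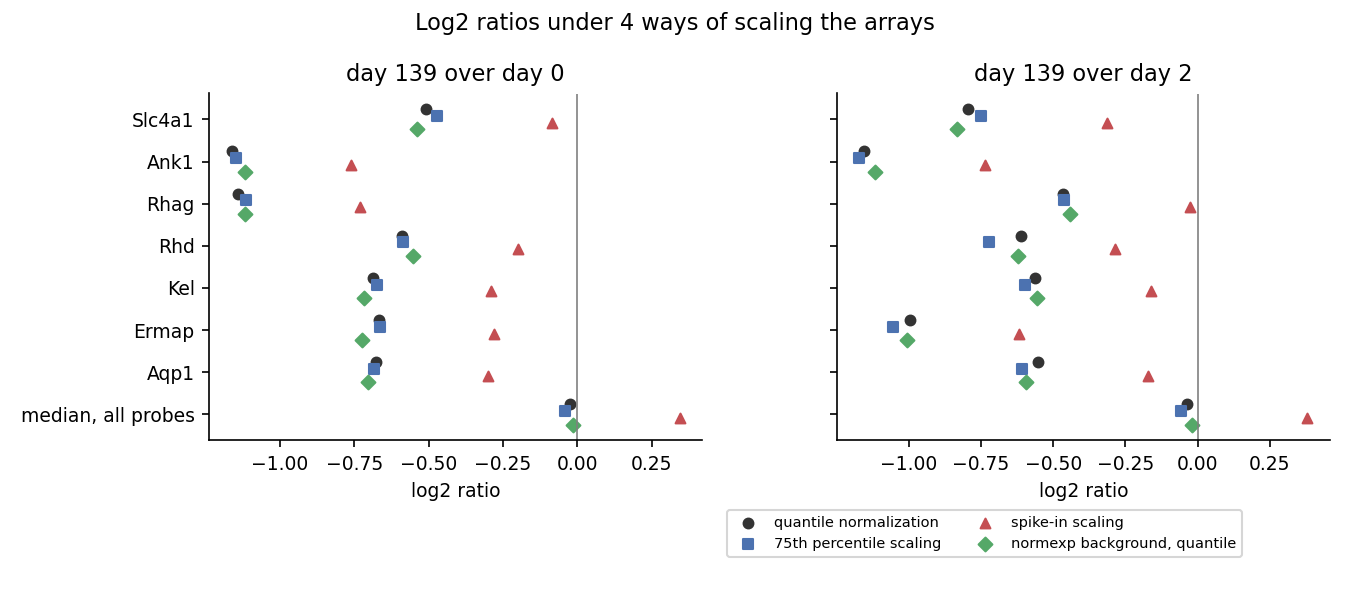
Log2 ratios of the 7 genes and the median of all probes under 4 scalings, for day 139 over day 0 and day 139 over day 2. Spike-in scaling moves genes and the median of all probes upward together, the latter to 0.34 and 0.38, and all 7 genes stay below 0.

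The genes that build the membrane skeleton around these proteins differed among themselves. Of 14 such genes, all measured, 5 were at or below a ratio of 0.66 in day 139 over day 0, against 14.7% of all probes, and 1 was at or above 1.5, against 12.8%, with a median log2 ratio of -0.27. Over day 2 these counts were 4 and 2, against 14.4% and 12.4% of all probes, with a median of -0.35. In day 2 over day 0 they were 1 and 0, against 10.4% and 10.1%, with a median of 0.01. Scaled to the spike-ins, the median of the list turned to 0.11 over day 0 and 0.03 over day 2, beside 0.34 and 0.38 for all probes. The counts became 1 lower and 1 higher over day 0, against 7.65% and 29.6% of all probes. Over day 2 they became 2 of each, against 6.11% and 32.9%. Add2, the beta adducin that caps actin filaments in red cells, had signals of 2883, 3497 and 1556 on days 0, 2 and 139, a log2 ratio of -0.89 over day 0. Its relative Add3, gamma adducin, which many cell types use, went the other way with 917, 1047 and 1794 (0.97). Tmod1, which caps the other end of the filaments, had 339, 262 and 198 (-0.77), and Gypc, the glycophorin that carries the Gerbich antigens, had 14263, 12840 and 8656 (-0.72). Epb41, which joins spectrin to actin, stood at 34524, 48362 and 35369, and Epb42 at 592, 359 and 575, with log2 ratios over day 0 of 0.03 and -0.04, both within the scanner error. Beta spectrin (Sptb) was dim, at 21.3 on day 0, and not well above background on day 139, where it was at least 1.17-fold lower than on day 0. The log2 ratios of Add2, Tmod1, Gypc and Add3 over day 0 kept their sign under spike-in scaling.

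Of 26 other blood group genes, 24 were on the array by name and 22 were measured. In day 139 over day 0, 18 of the 22 were below 0, against 52.2% of all probes, with a median log2 ratio of -0.39. At or below 0.66 were 7, against 14.7% of all probes, and 2 were at or above 1.5, against 12.8%. The counts were 4 and 3 over day 2, where the shares of all probes were 14.4% and 12.4%, with a median of -0.26. In day 2 over day 0 they were 2 and 0, against 10.4% and 10.1% of all probes, with a median of -0.12. Under spike-in scaling the counts became 1 lower and 4 higher over day 0, against 7.65% and 29.6% of all probes, with a median of 0.00. Over day 2 the counts became 2 lower and 6 higher, against 6.11% and 32.9%, with a median of 0.15. Gcnt2, the enzyme that branches the I antigen, was lower from day 2 on, with signals of 1087, 299 and 267 and a log2 ratio of -2.03 for day 139 over day 0. Abcg2, an exporter that carries the Junior antigen, had 6564, 5724 and 3551 (-0.89), and Slc29a1, a nucleoside transporter, 3663, 4434 and 2178 (-0.75). Icam4, the adhesion molecule that carries the Landsteiner-Wiener antigens, had 1435, 1249 and 894 (-0.68). Higher on day 139 were Cd55, a complement regulator of many cell types, with 1575, 1439 and 3061 (0.96), and Fut1, the H antigen fucosyltransferase, which was dim at 47.9, 44.3 and 142 (1.56). The log2 ratios over day 0 given here kept their sign under each scaling tried. Fut2 and Abo were not well above background on any array.

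The relatives of the 7 genes that serve other tissues went both ways. Of 28 such homologues, 18 were measured, and in day 139 over day 0 these had 3 at or below 0.66, against 14.7% of all probes, 7 at or above 1.5, against 12.8%, and a median log2 ratio of 0.42. Under normexp background correction the counts became 1 and 5, against 5.32% and 5.71% of all probes, with a median of 0.16. Under spike-in scaling they became 2 and 10, against 7.65% and 29.6% of all probes, with a median of 0.77. Over day 2 the counts were 4 and 3, against 14.4% and 12.4% of all probes. The median there was 0.05, which was -0.01 under normexp and 0.44 under spike-in scaling. In day 2 over day 0 the counts were 0 and 5, against 10.4% and 10.1% of all probes, with a median of 0.20. Slc4a2, the anion exchanger of most other cells, had signals of 896, 1273 and 1631, a log2 ratio of 0.87 over day 0 that ran opposite to Slc4a1 at -0.51. Btn1a1, a butyrophilin and a relative of Ermap, had 3680, 18195 and 18418, so that it was 2.31 higher on day 2 than on day 0 on the log2 scale and level from there to day 139 (0.02). Slc4a11 was dim, with 37.8, 58.9 and 131. The 3 homologues at or below 0.66 over day 0 were Ece2, Ank3 and Aqp9. Ece2 had signals of 1557, 1145 and 885, a log2 ratio of -0.81 over day 0. Ank3 (-0.93) and Aqp9 (-2.54) were dim and not well above background on day 139. Rhbg and Rhcg, the Rh glycoproteins of epithelia, were not well above background on any array. The directions named for Slc4a2, Btn1a1 and Slc4a11 over day 0 were kept under each scaling tried.

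Of 35 erythroid markers, 32 were measured and 26 were below 0 in day 139 over day 0, against 52.2% of all probes. At or below 0.66 were 13, against 14.7% of all probes, and 2 were at or above 1.5, against 12.8%, with a median log2 ratio of -0.53. The median was -0.45 over day 2 and -0.12 in day 2 over day 0, and under spike-in scaling it was -0.12 over day 0 and -0.05 over day 2. That scaling left 20 of 32 below 0 over day 0, where the median of all probes was 0.34. Under it 2 were at or below 0.66, against 7.65% of all probes, and 4 at or above 1.5, against 29.6%. Gata1 had signals of 9122, 11180 and 4832, and Klf1, the other erythroid factor named above, 1989, 1789 and 955. The markers at or above 1.5 were Trim58, which was dim with 31.0, 76.3 and 68.6 (log2 ratio 1.15 over day 0), and Tmcc2, with 383, 624 and 796 (1.06). The summed signal of the markers, 1677040, 1618950 and 1568930, was carried by globin probes at the top of the range, where Hba-a1 had 427413 on every array. Quantile normalization gives probes of equal rank the same value, so this equality does not show that globin RNA was level. The sums share that limit. These lists overlap in part, and Add2 stood in both the membrane skeleton and the erythroid list. The part of erythroid RNA as a whole in the values of the 7 genes was not tested.

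Markers of other cells moved too. All 11 megakaryocyte markers were below 0 in day 139 over day 0, against 52.2% of all probes. At or below 0.66 were 8, against 14.7% of all probes. Their median was -0.69, with summed signals of 35669, 38720 and 22512 on days 0, 2 and 139. Under spike-in scaling that median was -0.33, beside 0.34 for all probes. By that scaling 10 of 11 were below 0 and 1 was at or below 0.66, against 7.65% of all probes. Under normexp 4 were at or below 0.66, against 5.32% of all probes. All 12 B cell markers were above 0, with a median of 1.07 and sums of 61961, 62541 and 117767, and all 12 T cell markers were above 0, with a median of 0.84 and sums of 15794, 20987 and 29292. The 12 red pulp macrophage markers had a median of 0.04 and sums of 156593, 141675 and 146487. Of them 3 were at or below 0.66, against 14.7% of all probes, and 1 at or above 1.5, against 12.8%. The 13 neutrophil markers also had a median of 0.04, but 6 were at or below 0.66 and 1 at or above 1.5, against the same shares. The neutrophil sum was 230391, 80688 and 92033. Mmp8, a collagenase of neutrophil granules, had signals of 3033, 140 and 135, while Camp, an antimicrobial peptide of such granules, had 5295, 7500 and 8696. Under spike-in scaling the medians of these 2 lists were 0.40 and 0.43. Of 9 mesothelial markers, which mark the surface layer of the spleen, 8 were at or above a ratio of 1.5 over day 0, against 12.8% of all probes. Their sum was 1854, 3305 and 5598. Upk3b, Lrrn4, Upk1b and Gpm6a were not well above background on day 0. The median over day 0 was 4.57 for all 9 and 1.70 for the 5 well above background on all 3 arrays. In the same comparison the median was -0.99 for 12 measured islet markers, 2.56 for 12 measured exocrine pancreas markers and 0.06 for 11 measured spleen mesenchyme markers. For the exocrine markers well above background on all 3 arrays it was 0.53. The part of these shifts in the values of the 7 genes was not tested.

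**Figure D4:**
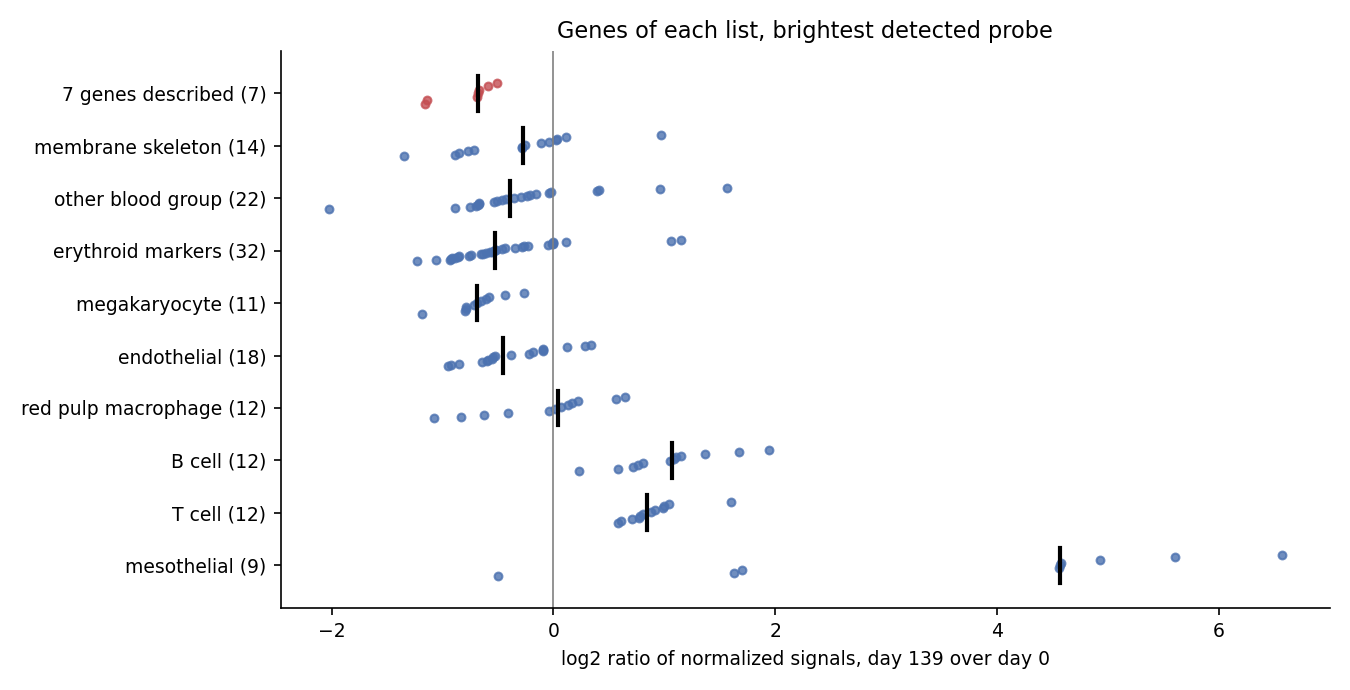
Log2 ratio of day 139 over day 0, with 1 point per gene, for the 7 genes and 9 lists, and a bar at the median of each. The medians run from -0.69 for megakaryocyte markers and -0.68 for the 7 genes, through -0.53 for erythroid markers, to 1.07 for B cell markers. The highest is 4.57 for mesothelial markers, of which 4 were not well above background on day 0. Their ratios are taken over very low signals and are less precise. The 5 mesothelial markers well above background on all arrays had a median of 1.70.

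Likeness to Slc4a1 was measured over the 3 arrays as the distance between log2 signals, each taken from its own mean. The 5 nearest of 19102 probes compared belonged to 1110029L17Rik, Pnp2, Ap1b1, Otud7b and Dnajc10, at distances of 0.0079 to 0.018. The nearest other member was Ermap at 0.150, and 437 probes (2.29%) lay within that distance. Rhd followed at 0.192, Kel at 0.291, Aqp1 at 0.292, Ank1 at 0.463 and Rhag at 0.691. With 3 arrays, many probes share a profile by this measure, and it describes these arrays alone.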

How the data were processed

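RNA of 3 spleens or spleen pools was measured on SurePrint G3 Mouse 8x60K arrays, 1 array per day. The authors deposited scanner files with the intensity of each of 62976 spots per array, 59305 of them not controls, on a linear scale and with flags for spots well above background, saturated or outlying. Per the file headers, Feature Extraction 10.7.1.1 had subtracted the background, while the submitters' processing notes name version 9.5.1.1. The labels and the study's methods name different RNA kits. A deposited table of normalized intensity per probe, which differed from the signals here by at most 0.0392% for the members, served as an alternative, and 0 of its columns lacked a sample.

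Control and outlier spots were left out, spots of a probe were averaged, and 55679 probes were quantile normalized, floored at 1 and log2 transformed. Ratios used the 32108 probes well above background on at least 1 array. Lower meant a ratio of at most 0.66, higher at least 1.5, and the Z-score limits were 2 and -2, as in the study's methods. Those methods ask for the ratio and the Z-score limit together, while lower and higher here refer to the ratio alone. The Z-score formula is not given there and was set here, with a window of 1000 probes. No p-value was computed. A gene took its brightest probe. Named were all 7 members with all their probes, genes of the lists of membrane skeleton, other blood group and homologous genes, up to 4 erythroid markers, and the 5 probes most like Slc4a1 with a mean signal of at least 100. The lists, which also covered the cell types given with their results, were written from general knowledge. The members and lists were chosen with earlier results of these data known. Positions of probes come from the annotation of the array, on mm9. Probe sequences were not checked against proteins and are not printed. Some genes of the lists are counted there but not reported by name. The calculations were tested on simulated data.

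Python 3.11.15, numpy 2.4.6, pandas 2.3.3, R 4.3.3 and limma 3.58.1 were used. Alternatives tried were normexp background correction (offset 50), 75th percentile or spike-in scaling, the authors' values, other detection filters, another floor, outlier spots kept, the median over the probes of a gene, and other spreads for the Z-score. Spike-in scaling minus the median of all probes was added after seeing the data. The number of arrays limits the precision.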

Additional observations from a re-analysis of the deposited data

How the results depend on the processing

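The members' median log2 ratio and their count at or below 0.66 moved under spike-in scaling, from -0.68 to -0.29 and from 5 to 2 genes for day 139 over day 0, and from -0.61 to -0.29 and from 4 to 2 genes over day 2. The cause was not tested beyond the shift of all probes given with the scalings above. The count past both the Z-score and the ratio limit depended on the spread used. For day 139 over day 0 it was 2, and it became 1 with a window of 250 probes, 0 with 1 SD over all probes and 4 with a scaled median absolute deviation. Over day 2 it was 0, and it became 1 with the window of 250 probes and 3 with the median absolute deviation. For day 2 over day 0 it was 0 and became 1 with the median absolute deviation. Of 210 values of single genes under the alternatives, 196 moved by less than the scanner error, and the 14 that moved by more were all under spike-in scaling. None changed sign except Ank1 in day 2 over day 0, from -0.01 to 0.02 under 75th percentile scaling and to 0.01 under spike-in scaling minus the median of all probes. No paired analysis was possible because each day had 1 array, and for the same reason no array could be left out. All member probes were bright enough to be well above background on every array, so the detection filters and the floor changed no value of theirs. The median over the probes of a gene could change only Ermap, as the other 6 genes had 1 probe each. Many of the 210 values could therefore not move, and the count of 196 is no measure of robustness. With 1 array a day, differences between days and differences between RNA samples cannot be told apart.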
